A study of Mus musculus with 8 samples.

Results

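The genes described here are 33 genes whose products fold proteins in the endoplasmic reticulum (ER), remove those that fail to fold, or sense that they build up. They were picked by gene symbol from the deposited expression table, which names 15867 genes, and all 33 were found there. All 33 also passed the filter on low values, a mean normalized count of at least 10. The values are gene-level counts from poly(A) RNA sequencing of primary macrophages of obese mouse adipose tissue, obtained by selecting cells with the macrophage surface protein F4/80. The 8 libraries form 2 groups with 4 biological replicates each. The control genotype is Mirc11 fl/fl Mirc22 fl/fl Lyz2 +/+, and the knockout genotype is Mirc11 fl/fl Mirc22 fl/fl Lyz2 Cre/Cre. Thus both groups carry loxP-flanked Mirc11 and Mirc22, the clusters of the miR-23, miR-24 and miR-27 microRNAs, and both were fed a high-fat diet for 20 weeks. The knockout mice carry Cre on both alleles of the Lyz2 locus, which is active in myeloid cells and not in adipocytes. Cluster loss, Cre and the loss of intact Lyz2 come together in the knockout group, and with no Cre-only group they cannot be told apart. The labels give no age and do not say whether a replicate is 1 animal, so each p-value reflects only how far these 8 samples spread. In such bulk libraries fewer cells of a type and less RNA per cell cannot be told apart.

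The ER is where secreted and membrane proteins are made. They enter through the Sec61 channel, are held by chaperones of the heat shock protein and lectin families, and receive their disulfide bonds from the protein disulfide isomerases. Proteins that do not fold are passed back through the membrane and destroyed by the proteasome, which is called ER-associated degradation. When unfolded proteins accumulate, the membrane sensors ATF6, IRE1 (gene Ern1) and PERK (gene Eif2ak3) start the unfolded protein response, which raises transcription of chaperones, isomerases and degradation factors. Macrophages of obese fat take up lipid and secrete many proteins, and both are loads on this system.

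Sequences of 2 kinds bear on these genes and are shown before the values. The first is the ER stress response element, where NF-Y binds CCAAT and ATF6 or XBP1 binds CCACG. It was searched as CCAAT, 9 bases of any kind and CCACG, on both strands, in promoter windows of 300 bases from RefSeq (build GRCm38.p6), of which 250 lie before the start of the gene. A promoter window was found for 28 of the 33 genes. Hyou1, Manf, Derl1, Atf6 and Sec61a1 have no entry. The element was present in 9 of the 28 (32.1%). It was present in 37 of all 27025 genes with a window (0.137%) and in 20 of the 11904 of them tested here (0.168%). The shorter CCACG alone, which the element contains, was present in 24 of the 28 (85.7%). Of all genes with a window 35.5% held it, and of those tested here 48.9%. Each line gives the element in capitals with 5 bases on either side, read along the gene's strand. Those that start with CGTGG hold the element on the opposite strand.
Hspa5 chr2:34772020-34772048 (plus strand): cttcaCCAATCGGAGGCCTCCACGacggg
Hsp90b1 chr10:86705633-86705661 (minus strand): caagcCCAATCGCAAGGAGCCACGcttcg
Hsp90b1 chr10:86705528-86705556 (minus strand): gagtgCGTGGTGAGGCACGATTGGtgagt
Calr chr8:84847070-84847098 (minus strand): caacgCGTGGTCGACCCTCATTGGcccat
Canx chr11:50325795-50325823 (minus strand): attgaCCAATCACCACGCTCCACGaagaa
Dnajc3 chr14:118937822-118937850 (plus strand): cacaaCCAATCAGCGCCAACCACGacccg
Pdia6 chr12:17266486-17266514 (plus strand): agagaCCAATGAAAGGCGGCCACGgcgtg
Creld2 chr15:88819515-88819543 (plus strand): cttctCGTGGCGAGCCTCAATTGGtccac
Syvn1 chr19:6046527-6046555 (plus strand): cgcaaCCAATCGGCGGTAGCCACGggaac
Derl3 chr10:75893237-75893265 (plus strand): tctacCGTGGGACTTCCCCATTGGctagc

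The second is the seed, bases 2 to 8 of a microRNA, which pairs with target transcripts. The mature microRNAs that the clusters encode were taken from RefSeq (build GRCm38.p6), with the seed in capitals. miR-23b-3p belongs to the same set and is named only.
miR-23a-3p: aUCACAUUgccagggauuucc
miR-27a-3p: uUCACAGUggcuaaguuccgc
miR-27b-3p: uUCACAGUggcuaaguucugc
miR-24-3p: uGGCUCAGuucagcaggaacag

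The miR-27a-3p and miR-27b-3p lines share their seed, and miR-24-3p is encoded in both clusters. Sites of 8 bases (a match to the seed followed by A) were searched on the transcript strand in the 3' untranslated regions of GENCODE M21 on mm10, with the longest one taken for a gene. The miR-23 site AATGTGAA was present in Hsp90b1, Dnajc3, Edem1, Edem3, Derl1 and Ssr1, which is 6 of the 33 genes, against 7.54% of the 14858 genes searched. The miR-27 site ACTGTGAA was present in Dnajc3 and Edem1 (7.01% of all genes), and the miR-24 site CTGAGCCA in Derl1 and Ern1 (9.46% of all genes). In all, 7 of the 33 genes (21.2%) held at least 1 site, and 21.2% of all genes searched did. Dnajc3, Edem1, Derl1 and Ern1 hold 2 sites each. The pairs of Dnajc3, which lie closest together, and of Ern1, which are of 1 family, are shown with the site in capitals and 11 bases on either side.
Dnajc3, miR-27 site at base 2521 of 3513: tactctttcttACTGTGAAtagaagaaaac
Dnajc3, miR-23 site at base 2565 of 3513: agtggtttattAATGTGAAttggatgtaac
Ern1, miR-24 site at base 3172 of 3892: gcccgtctgtgCTGAGCCAcccccagagca
Ern1, miR-24 site at base 3856 of 3892: ggcgacttatgCTGAGCCAaccacaaataa

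Values below are normalized counts as deposited. Differences between the groups were fitted with limma on log2(normalized count + 1) and are signed so that a negative value is lower in the knockout, with Benjamini-Hochberg adjusted p over all 15862 genes that passed the filter and a threshold of 0.05. Of the 33 genes only Atf6 passed. It was lower in the knockout group, 0 genes rose and the other 32 did not pass. Over all genes 573 passed (3.61%), 377 of them lower (2.38%) and 196 higher (1.24%), so that 34.2% of the calls were higher. With each library scaled to the same total, 245 were higher and 244 lower (50.1% higher) and the median of all genes moved from 0.00 to 0.06, and Atf6 was again the member called. The median difference of the 33 genes was -0.06, beside 0.00 over all genes tested, with 12 differences above 0 and 21 below. At an unadjusted p under 0.05 there were 4 of the 33, Derl3 higher and Atf6, Sel1l and Eif2ak3 lower, where 21.2% of all genes reached that p. The groups were fully separate for Atf6, Eif2ak3, Sel1l and Os9, each lower in all 4 knockout libraries, and 13.7% of all genes had groups that did not overlap. The share of the 33 genes at each of these marks lies near or under that of all genes. By edgeR's quasi-likelihood test on the recovered reads 1 gene, Atf6, passed. The authors' deposited table lists 2 of the 33 genes at adjusted p under 0.05, Atf6 (9.86e-05) and Sel1l (0.0230), both with the log2 fold change of control over knockout above 0, and 10.9% of all genes given an adjusted p there.

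**Figure D1:**
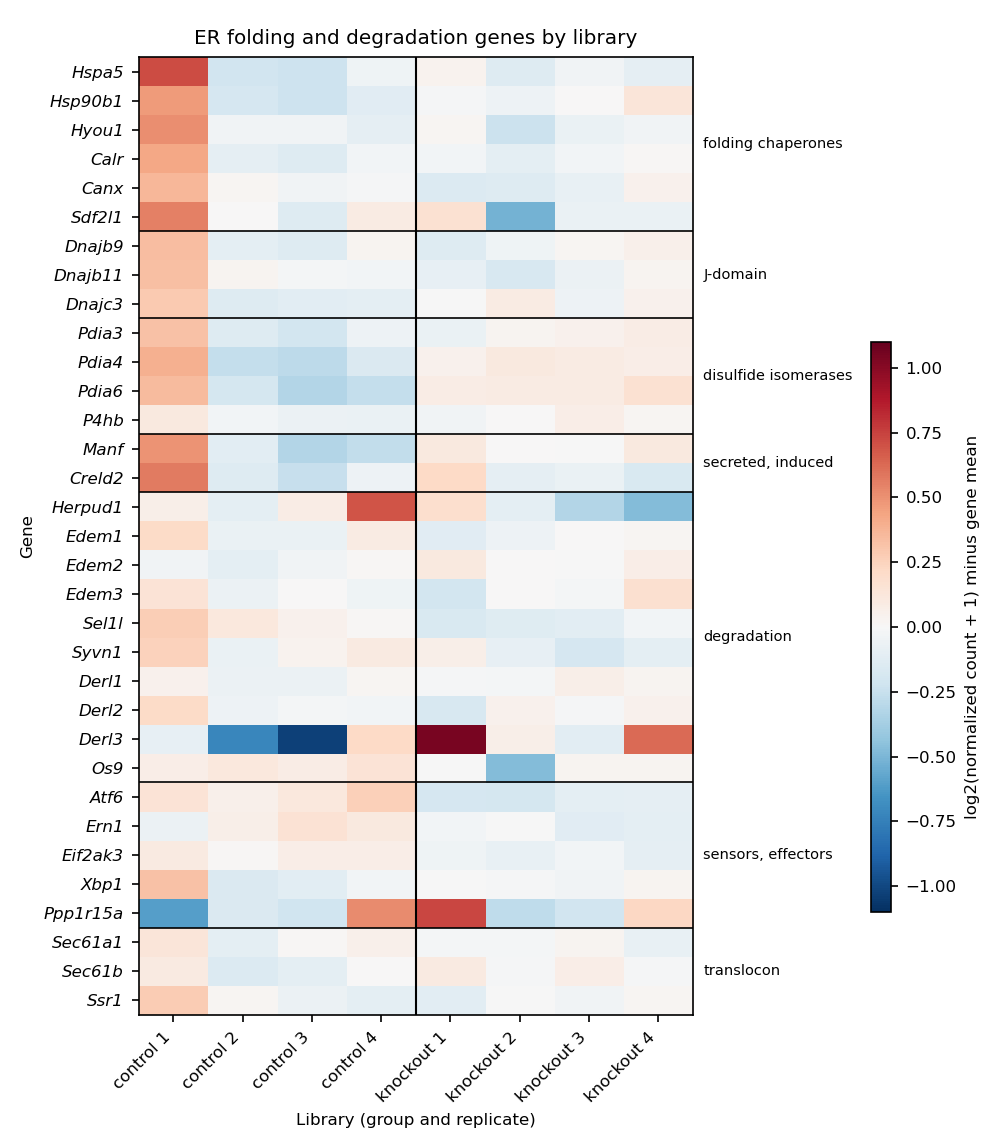
Each row is a gene, grouped by role, and each column a library. Colour is log2(normalized count + 1) minus the mean of that gene over the 8 libraries, red above and blue below. Control replicate 1 is red for every chaperone, J-domain, isomerase and secreted gene, while Atf6 and Eif2ak3 are split by group.

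The pattern that stands out is one of a library and not of a group. Recovered totals ran from 31789395 reads in knockout replicate 2 to 46621080 in control replicate 1, the deepest library. Control replicate 1 held the highest of the 8 values in 24 of the 33 genes (72.7%), a place it took in 20.8% of all genes tested. The mean log2 deviation of the 33 genes from their own averages was 0.24 in control replicate 1 and lay between -0.11 and 0.04 in the other 7 libraries. Over all genes tested that deviation was -0.05 in control replicate 1. By role, the deviation of control replicate 1 reached 0.53 for the secreted proteins Manf and Creld2, 0.51 for the folding chaperones, 0.32 for the J-domain co-chaperones and 0.29 for the disulfide isomerases, and was 0.17 for the translocon and 0.11 for degradation. For the stress sensors and effectors it was -0.02. Marker sums of other cells also set this library apart. Its 12 endothelial and mural markers summed to 74360, the lowest of all 8 libraries, and its 12 fibroblast markers to 194179, where the other controls ran from 118008 to 149405 and the knockout libraries from 160078 to 242257. All markers of both lists were measured and none was at 0, and their part in the high values of control replicate 1 was not tested. Differences of the 33 genes that turn sign or move by more than 1.5 times without control replicate 1 are therefore given with and without it. That library was singled out by its values in these same genes, so calls made without it are a description.

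Among the sensors, Atf6, a membrane-bound transcription factor that is cut free under stress and activates chaperone genes, measured 4297, 4031, 4207 and 4638 across control replicates 1 to 4 and 3408, 3386, 3599 and 3609.5 across knockout replicates 1 to 4. Every knockout value lay below every control value, and the highest knockout library was at 3609.5 against 4031 in the lowest control. The means were 4293 ± 255 and 3501 ± 120.1 (SD, n = 4), a fold of 0.816 (log2 difference -0.29, SE 0.05, adjusted p = 0.0263). Atf6 spans chromosome 1 from 170704674 to 170867771 in mm10 (minus strand), and no other annotated gene shares exonic bases with it. Without control replicate 1 the difference was -0.29, SE 0.06, adjusted p = 0.0519. When each library was left out in turn it ran from -0.32 to -0.26, with adjusted p from 0.0345 to 0.0755. The call held without control replicate 2 and was lost without any other of the 8 libraries.

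Eif2ak3 encodes the kinase PERK, which slows translation during stress, and measured 1563, 1479.9, 1538 and 1543 in the control and 1416, 1380.2, 1437 and 1369 in the knockout libraries. The groups did not overlap, but the difference did not pass (log2 difference -0.13, SE 0.05, adjusted p = 0.155). An unstranded count could not separate it from Gm43292, which shares 485 exonic bases on the other strand. Ern1, which encodes IRE1, the kinase and nuclease that splices Xbp1 transcripts, measured 2149.6, 2357, 2523 and 2435 in the control and 2212, 2242, 2063 and 2093 in the knockout libraries (-0.13, SE 0.06, adjusted p = 0.245). Its knockout values overlapped the controls only through control replicate 1, the lowest control, and without that library the difference was -0.18, SE 0.05, adjusted p = 0.123. All 3 sensors thus had negative differences, of which that of Atf6 passed.

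Neither effector below the sensors passed. Xbp1, the transcription factor that IRE1 activates, measured 5272, 3779, 3893 and 4118 in the control and 4199.8, 4163, 4085 and 4306 in the knockout libraries, and the highest value was that of control replicate 1 (log2 difference -0.01, SE 0.10, adjusted p = 0.954, and 0.09 without that library). Gene counts do not separate its spliced from its unspliced form. Ppp1r15a, the GADD34 subunit that restores translation, measured 1956, 2670.1, 2567 and 4263 in the control and 4961, 2449, 2573 and 3489 in the knockout libraries. Apart from Derl3 it had the widest fold from lowest to highest library within both groups, 2.18 in the control and 2.03 in the knockout group. Control replicate 4 and knockout replicate 1 were high and control replicate 1 was the lowest of all 8 libraries (0.23, SE 0.27, adjusted p = 0.673). Without control replicate 1 the difference was 0.07.

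Of 10 macrophage markers 9, like Atf6, had negative differences, and Mrc1 went the other way (0.19). The summed level of 10 macrophage markers (Adgre1, which encodes F4/80, Csf1r, Cd68, Itgam, Mertk, Fcgr1, Cd14, Mrc1, C1qa and C1qb) ran from 317383 to 442258 among the controls and from 292740 to 315154 in the knockout group, with no overlap. The lowest control sum and the highest knockout sum lay close together. Among the controls the sum and Atf6 had the same order, from replicate 2 (317383 and 4031) to replicate 4 (442258 and 4638). Within the knockout group the sum was lowest in replicate 4 (292740), where Atf6 was highest (3609.5), close to replicate 3 (3599). The part of macrophage content in the level of Atf6 was not tested. All 10 markers were measured, the least abundant being Fcgr1 with a mean of 3552. In limma 3 fell (Csf1r, Cd68 and Itgam), 0 rose and 7 did not pass, with a median difference of -0.31. DESeq2 called 5 lower, the same 3 with Fcgr1 and Cd14. Cd68 and Itgam also passed in limma without control replicate 1, and Csf1r did not (adjusted p = 0.0682). Summed endothelial and mural markers ran from 74360 to 132180 among the controls and from 125026 to 171438 in the knockout group, and summed dendritic cell markers 1507 to 2145 and 2396 to 2981, without overlap. None of the 12 endothelial and mural or 8 dendritic cell markers passed in limma or edgeR, with 9 and 2 at an unadjusted p under 0.05, and 4 and 2 passed as higher in DESeq2.

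Markers of further cell types were set beside them. Of the 12 fibroblast markers all 12 differences were above 0 (median 0.35), with 5 at an unadjusted p under 0.05, 0 calls in limma or edgeR and 1 in DESeq2, and without control replicate 1 Dpt passed in limma. Of the 10 T and NK cell markers all 10 were above 0 (median 0.83, 4 at an unadjusted p under 0.05), and 0 passed in limma, edgeR or DESeq2. Their sum ran from 443 to 1023 among the controls and from 536 to 1623 in the knockout group. Of the 8 adipocyte markers 7 were above 0 (median 0.29, 3 at an unadjusted p under 0.05), with 0 calls in limma or edgeR and 2 as higher in DESeq2. Their sum ran from 3582 to 4703 and from 4675 to 5868. Mesothelial and epithelial markers were above 0 in 4 of 8 (2 called higher in DESeq2), and of 8 neutrophil markers 5 were abundant enough to test and 0 passed in limma or edgeR. The part of these cells in the lower values of Atf6, Sel1l and Eif2ak3 was not tested.

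**Figure D2:**
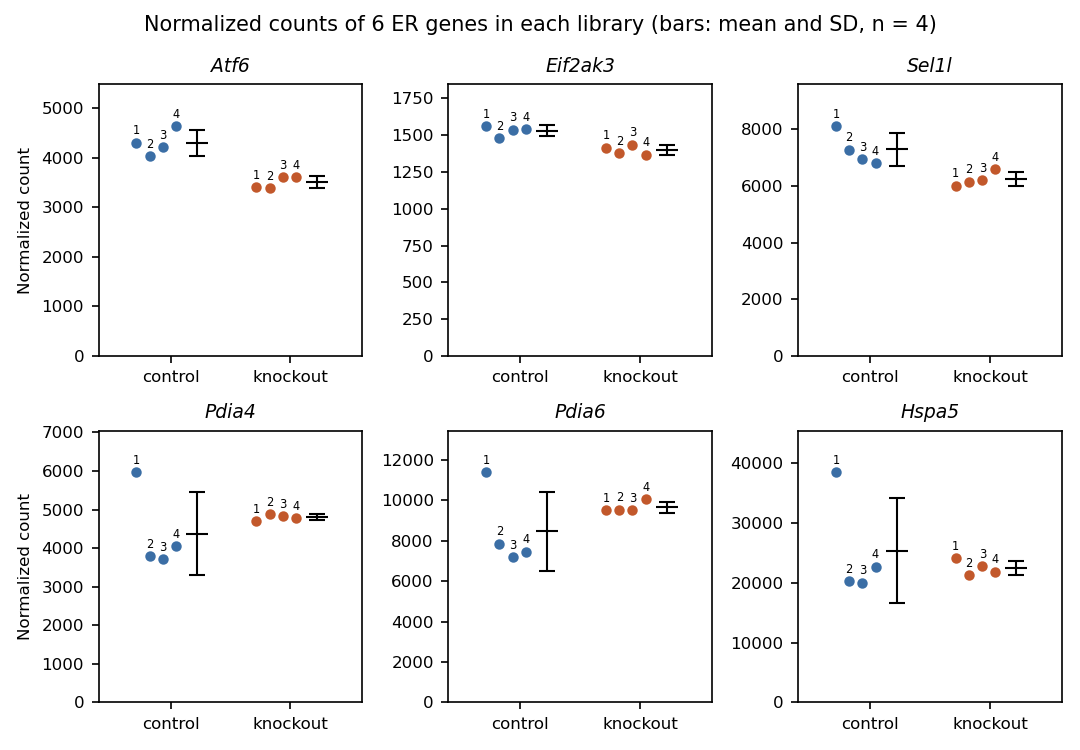
Normalized count of 6 genes in each library, numbered by replicate, with the mean and SD of each group (n = 4) beside the points; each axis starts at 0. Atf6, Eif2ak3 and Sel1l are lower in all 4 knockout libraries, whereas for Pdia4, Pdia6 and Hspa5 control replicate 1 lies above all other libraries.

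Of the 6 folding chaperones 0 passed in limma, edgeR or DESeq2, and 0 reached an unadjusted p under 0.05. Hspa5, which encodes BiP, the main heat shock protein 70 of the ER and a standard readout of ER stress, measured 38409, 20259, 20017 and 22661 across control replicates 1 to 4 and 24057, 21229, 22728 and 21839 across knockout replicates 1 to 4. Control replicate 1 was 1.83 times the mean of the other 3 controls, the highest such ratio of the 33 genes. The other 7 libraries lay between 20017 and 24057. The log2 difference was -0.12, SE 0.19, adjusted p = 0.768 over all 8 libraries and 0.10, SE 0.07, adjusted p = 0.507 without control replicate 1, so its sign rests on that library.

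Hsp90b1, which encodes GRP94, the ER member of the heat shock protein 90 family, measured 31841, 20351, 19664 and 21129.7 in the control and 22920.2, 22220, 23203 and 25302 in the knockout libraries (0.04, SE 0.14, adjusted p = 0.913). Without control replicate 1 all 4 knockout values lay above the remaining controls, with a difference of 0.20 that did not pass (adjusted p = 0.160). Its exons share 415 bases with the pseudogene 1810014B01Rik on the other strand. Hyou1, which encodes the nucleotide exchange factor GRP170, measured 7009, 4770.1, 4769 and 4576 in the control and 4993, 4180.3, 4657 and 4791 in the knockout libraries (-0.16, SE 0.13, adjusted p = 0.525). Both genes were highest in control replicate 1, and without it the difference of Hyou1 was -0.02.

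The lectin chaperones calreticulin and calnexin, which hold proteins with trimmed sugar chains, were also highest in control replicate 1. Calr measured 42984, 29973, 29099.7 and 31361 in the control and 31478, 29749, 31349.7 and 32439 in the knockout libraries (-0.08, SE 0.12, adjusted p = 0.764). Canx measured 19927, 15732, 15126 and 15349.6 in the control and 13936, 14035, 14630.1 and 16046 in the knockout libraries (-0.17, SE 0.10, adjusted p = 0.358). In knockout replicates 1 to 3 Canx lay below all controls, and knockout replicate 4 overlapped them. The differences without control replicate 1 were 0.05 for Calr, which turned sign, and -0.07 for Canx. Calr lies 633 kb from Mir23a of the deleted Mirc11 on chromosome 8 (84841850 to 84846934), and its difference did not pass. Sdf2l1, a partner of the co-chaperone ERdj3, measured 3614, 2464, 2224 and 2611 in the control and 2764, 1709, 2329.8 and 2335 in the knockout libraries (-0.25, SE 0.18, adjusted p = 0.452), with knockout replicate 2 lowest of all 8, and differed by -0.11 without control replicate 1.

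Of the 3 J-domain co-chaperones, which stimulate the ATPase of BiP, 0 passed in limma, edgeR or DESeq2 and 0 reached an unadjusted p under 0.05. Dnajb9 (ERdj4) measured 1616, 1184, 1154 and 1302 in the control and 1158, 1236, 1296 and 1323 in the knockout libraries (-0.06, SE 0.11, adjusted p = 0.804). Dnajb11 (ERdj3) measured 4885, 3973, 3829 and 3799 in the control and 3649, 3438, 3710.4 and 3958 in the knockout libraries (-0.15, SE 0.09, adjusted p = 0.343). Dnajc3 (p58IPK), which holds the paired miR-27 and miR-23 sites shown above, measured 5151, 3829, 3891 and 3918 in the control and 4196, 4501, 4069 and 4363 in the knockout libraries (0.04, SE 0.10, adjusted p = 0.855). All 3 were highest in control replicate 1. Without it the knockout values of Dnajc3 lay above all remaining controls (log2 difference 0.14, SE 0.05, adjusted p = 0.181), while Dnajb9 (0.05) and Dnajb11 (-0.07) overlapped.

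Among the disulfide isomerases, 2 calls were gained when control replicate 1 was left out. None of the 4 passed over all 8 libraries in limma, edgeR or DESeq2 (0 at an unadjusted p under 0.05), and all 4 differences were above 0. Pdia6 measured 11383, 7857, 7179 and 7460.2 across control replicates 1 to 4 and 9499, 9533, 9511 and 10062 across knockout replicates 1 to 4. The highest value of all was in control replicate 1, and the other 3 controls were the lowest. Over all 8 libraries the difference was 0.21, SE 0.13, adjusted p = 0.395, and without control replicate 1 it was 0.36, SE 0.05, adjusted p = 0.0185.

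Pdia4 (ERp72) measured 5964, 3786, 3708 and 4058 across control replicates 1 to 4 and 4697, 4882, 4831 and 4783 across knockout replicates 1 to 4, which is the same arrangement. Its difference was 0.16, SE 0.14, adjusted p = 0.545 over all 8 libraries and 0.32, SE 0.05, adjusted p = 0.0229 without control replicate 1. These 2 genes were the members that passed as higher without that library, where 0.953% of all genes did so. Since control replicate 1 was singled out by its high values in these same genes, the 2 calls are no independent evidence. The knockout libraries were tight for both, with means of 9651 ± 274 for Pdia6 and 4798 ± 78.7 for Pdia4. Pdia6 shares 50 exonic bases with Atp6v1c2 on the other strand and Pdia4 shares 14 with Mir704.

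Pdia3 (ERp57), which works with calnexin and calreticulin, measured 22225, 16101, 15443 and 17144 in the control and 16939, 18155, 18438 and 18814 in the knockout libraries (0.04, SE 0.11, adjusted p = 0.863). P4hb, the classical protein disulfide isomerase, measured 19675, 17826, 17464 and 17282 in the control and 17800.2, 18239.7, 19184 and 18524 in the knockout libraries (0.03, SE 0.06, adjusted p = 0.811) and was the gene of this role that varied least among the controls. Their differences without control replicate 1 were 0.16 and 0.07, and neither passed (adjusted p = 0.238 and 0.503).

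Manf and Creld2 encode small ER proteins that are induced by stress and partly secreted. Manf measured 3846, 2521, 2177 and 2257 in the control and 2938, 2738, 2719.8 and 2944 in the knockout libraries (0.11, SE 0.16, adjusted p = 0.748). Without control replicate 1 its knockout values lay above all remaining controls, and the difference of 0.29 did not pass (adjusted p = 0.0648). Exons of Manf share 146 bases with Dcaf1 on the other strand. Creld2 measured 2009.6, 1227, 1137 and 1299 in the control and 1571, 1264, 1289 and 1201 in the knockout libraries (-0.06, SE 0.17, adjusted p = 0.876), with control replicate 1 and then knockout replicate 1 highest. Its difference was 0.12 when that library was left out.

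Setting control replicate 1 aside, 5 of the 33 genes were higher in every knockout library than in the other 3 controls: Hsp90b1, Dnajc3, Pdia4, Pdia6 and Manf. Over all genes 8.4% were. Control replicate 1 was set aside for its high values in such genes, so this is a description and no fair comparison of shares. Another 5 were lower in every knockout library, Sel1l, Os9, Atf6, Ern1 and Eif2ak3, where 10.4% of all genes were. The median difference of the 33 genes was then 0.05, with 20 differences above 0, beside 0.00 over all genes. The first group holds the folding chaperone Hsp90b1, the J-domain gene Dnajc3, the isomerases Pdia4 and Pdia6, and Manf. The second holds 3 stress sensors and 2 degradation factors. The first group does not stand for its roles as a whole. Of the 6 folding chaperones 3 differences were above 0 without control replicate 1, with a median of 0.02.

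**Figure D3:**
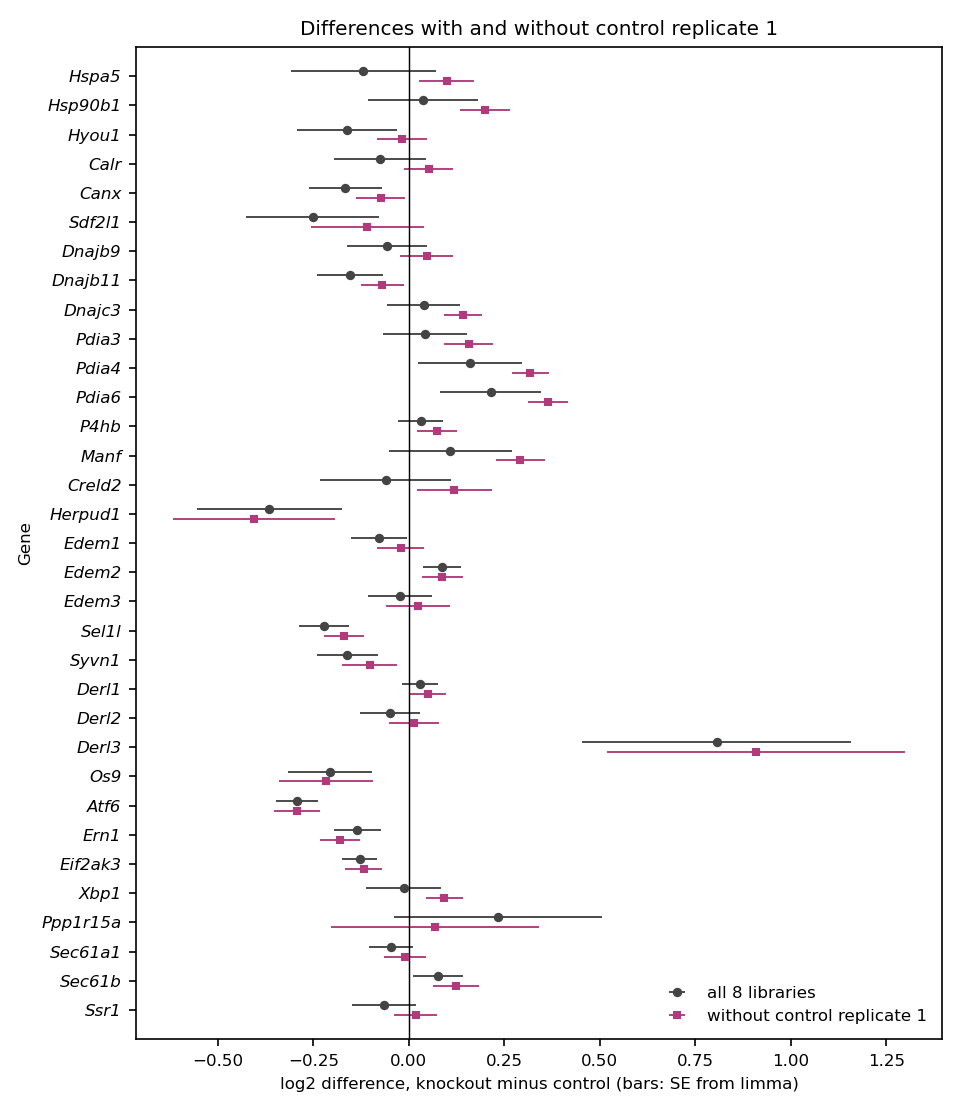
Log2 difference, knockout minus control, of each gene with its standard error from limma, over all 8 libraries (circles) and without control replicate 1 (squares). Chaperones and isomerases shift to the right without that library, Hspa5 from -0.12 to 0.10, whereas Atf6, Os9 and Edem2 stay where they were.

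Of the 10 degradation genes 0 passed in limma or edgeR, and Sel1l passed as lower in DESeq2. Sel1l, the adaptor that holds the HRD1 ubiquitin ligase complex together, measured 8126, 7289, 6955 and 6815 across control replicates 1 to 4 and 6013, 6158, 6206 and 6599.9 across knockout replicates 1 to 4. All 4 knockout libraries lay below all 4 controls, although knockout replicate 4 and control replicate 4 were close. The difference was -0.22, SE 0.06, adjusted p = 0.0977, and without control replicate 1 it was -0.17, SE 0.05, adjusted p = 0.138. No other annotated gene shares exonic bases with it.

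Syvn1, which encodes the HRD1 ligase itself, measured 2412, 1925, 2071 and 2170.3 in the control and 2109, 1902, 1775 and 1875 in the knockout libraries (-0.16, SE 0.08, adjusted p = 0.288). The groups overlapped, and without control replicate 1 the difference was -0.10. Os9, a lectin that brings misfolded glycoproteins to the HRD1 complex, measured 10839, 11163, 10899.5 and 11434 in the control and 10292, 7434, 10538 and 10566 in the knockout libraries (-0.21, SE 0.11, adjusted p = 0.319). Its groups did not overlap, but 3 of the knockout libraries were just under the controls and knockout replicate 2 alone was far below. Without that library the difference was -0.08 (SE 0.05, adjusted p = 0.375). Herpud1, a stress-induced part of the same complex, measured 2179.9, 1942, 2203 and 3377 in the control and 2374, 1933, 1664 and 1498 in the knockout libraries (-0.37, SE 0.19, adjusted p = 0.309), with control replicate 4 far above the rest and knockout replicate 4 lowest.

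The 3 EDEM proteins mark or trim the mannose of glycoproteins for degradation. Edem1 measured 6289, 5156, 5182 and 5790.1 in the control and 4984, 5232, 5459 and 5506 in the knockout libraries (-0.08, SE 0.07, adjusted p = 0.584). Edem2 measured 2429.5, 2314, 2431 and 2528 in the control and 2687, 2504, 2492 and 2622 in the knockout libraries (0.09, SE 0.05, adjusted p = 0.344). Edem3 measured 2739.8, 2353, 2478 and 2394 in the control and 2148, 2475, 2424 and 2790.1 in the knockout libraries (-0.02, SE 0.08, adjusted p = 0.912). Each overlapped between the groups. Of the 3, Edem1 was highest in control replicate 1, which in Edem2 lay among the other controls. Without it the differences were -0.02 for Edem1, 0.09 for Edem2 and 0.02 for Edem3.

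The derlins are membrane proteins through which substrates leave the ER. Derl1 measured 4029, 3733, 3734 and 3967 in the control and 3866, 3844, 4083 and 3984 in the knockout libraries (0.03, SE 0.05, adjusted p = 0.769) and Derl2 measured 1959, 1623, 1664 and 1653 in the control and 1494, 1747, 1675 and 1749 in the knockout libraries (-0.05, SE 0.08, adjusted p = 0.773). Both are broadly expressed and overlapped between the groups, and without control replicate 1 they differed by 0.05 and 0.01. Derl2 shares 231 exonic bases with Mis12 on the other strand. Derl3, the derlin of secretory cells such as plasma cells, was the scarcest of the 33 genes and measured 33.6, 21.3, 17.1 and 41.9 in the control and 74.7, 37.4, 32.9 and 55.6 in the knockout libraries. Knockout replicate 1 was highest, control replicate 3 lowest, and the groups overlapped.

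The difference of Derl3 was the largest of the 33 (0.81, SE 0.35, adjusted p = 0.231) but with counts this low it carried the largest standard error as well, and the pseudocount understates it. Plasma and B cell markers were set beside it. Of the 12, all measured, 9 had differences above 0 and 3 below (Sdc1 -0.02, Tnfrsf17 -0.09 and Prdm1 -0.17). The sum of the 12 lay between 15697 and 29080 in control libraries and between 18123 and 43142 in knockout libraries. Knockout replicate 1 had the highest sum and the highest Derl3. The next highest library was control replicate 4 for the sum (29080) and knockout replicate 4 for Derl3 (55.6). None of the 12 passed in limma, edgeR or DESeq2, 0 reached an unadjusted p under 0.05, none is at 0, and the part of these cells in the level of Derl3 was not tested.

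The 3 translocon genes did not pass in limma, edgeR or DESeq2, with 0 at an unadjusted p under 0.05. Sec61a1, the pore subunit of the Sec61 channel, measured 5958, 5053, 5478 and 5652 in the control and 5363, 5345, 5563 and 5134 in the knockout libraries (-0.05, SE 0.06, adjusted p = 0.697). Sec61b, its small beta subunit, measured 1598, 1341, 1379 and 1493 in the control and 1597, 1479, 1561 and 1478 in the knockout libraries (0.08, SE 0.07, adjusted p = 0.554). Ssr1, a subunit of the translocon-associated complex TRAP, measured 5633, 4723, 4439 and 4306 in the control and 4287, 4642, 4521 and 4724 in the knockout libraries (-0.06, SE 0.08, adjusted p = 0.709). All 3 were highest in control replicate 1, and the groups overlapped. Without it the differences were -0.01 for Sec61a1, 0.12 for Sec61b and 0.02 for Ssr1. Sec61a1 shares 549 exonic bases with Gm44170 on the other strand.

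Levels of different genes are compared per kilobase of the longest annotated transcript. Calreticulin led in both groups, with 15272 ± 2970.2 normalized counts per kilobase in control and 14310.4 ± 511 in knockout libraries (SD, n = 4). Hsp90b1 followed at 7215 ± 1788 and 7266 ± 412. Next came Hspa5 (6899.9 ± 2396 and 6117 ± 334), Pdia3 (6400.1 ± 1111 and 6529 ± 293) and P4hb (6313 ± 384 and 6444 ± 203). In the control group these 4 genes did not differ from one another beyond their spread, which control replicate 1 widened. In the knockout group Hsp90b1 (7266 ± 412) lay above Hspa5 (6117 ± 334) by more than their spread. Calr stood clear of the 4 in both groups.

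Most degradation factors and the sensors sat lower in the order. Os9 was the degradation gene with the highest level (4219 ± 104 and 3695 ± 579 per kilobase), above Sel1l (1158 ± 93.3 and 991 ± 39.8). Atf6 (592 ± 35.2 and 483 ± 16.6) was above Ern1 (341 ± 23 and 309.9 ± 12.6) and Eif2ak3 (339 ± 7.95 and 310.3 ± 6.99), which were level with each other. Derl3 came last at 21.6 ± 8.61 and 38.0 ± 14.4. Between the groups the largest move in this order was that of Herpud1, from place 15 in control to place 21 in knockout libraries.

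**Figure D4:**
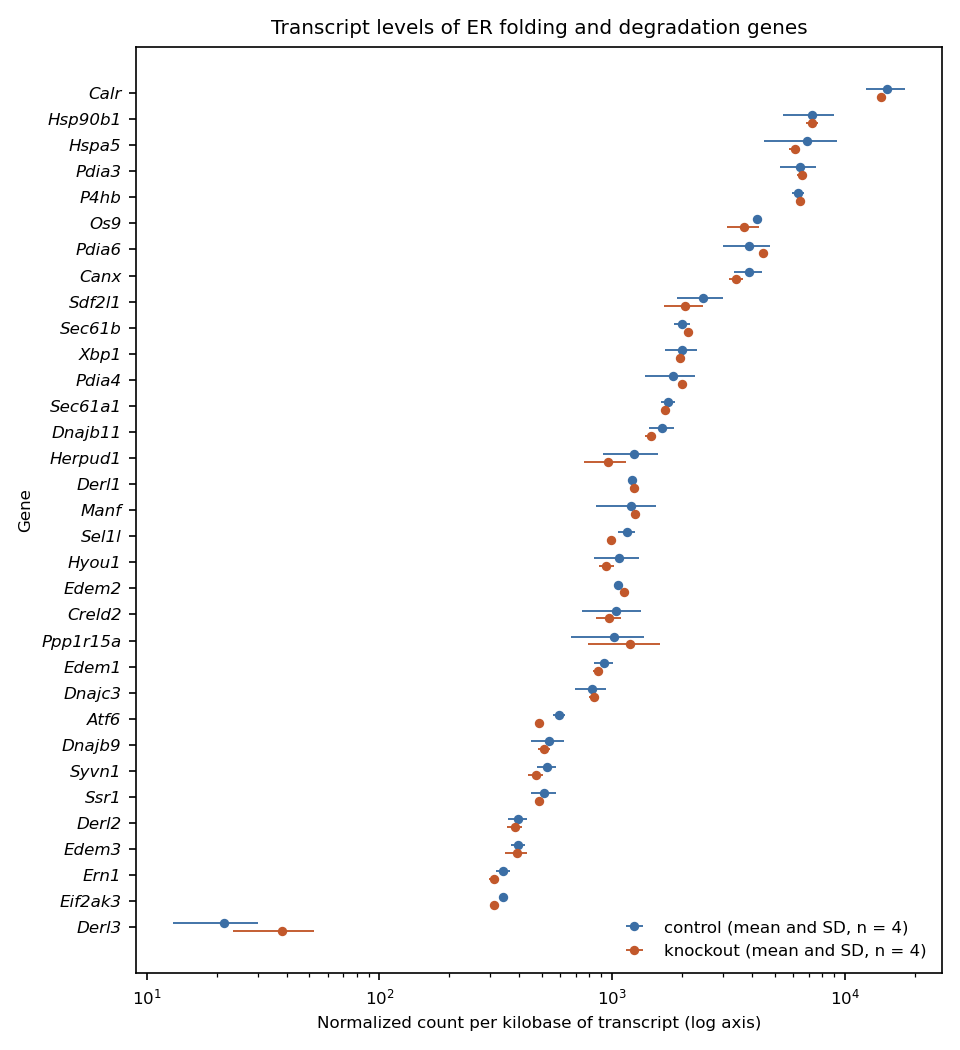
Normalized count per kilobase of the longest annotated transcript, mean and SD over 4 libraries per group, on a log axis. Calr is highest and Derl3 lowest in both groups; the wide control bars of Hspa5, Hsp90b1 and Pdia4 come from control replicate 1.

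The promoter element and the values can be set side by side. The 9 genes with the element (Hspa5, Hsp90b1, Calr, Canx, Dnajc3, Pdia6, Creld2, Syvn1 and Derl3) had a median difference between the groups of -0.06, and the 19 genes with a window and no element also had -0.06. These medians were 0.12 and 0.02 without control replicate 1. Over all 8 libraries limma called 0 of the 9 and 0 of the 19, and Atf6 has no window. DESeq2 called Sel1l, which is among the 19. With control replicate 1 left out, limma called Pdia6 among the 9 and Pdia4 among the 19. Among the 9, 8 were highest in control replicate 1, and 13 among the 19. The ratio of control replicate 1 to the mean of the other controls had a median of 1.43 in the 9 and 1.16 in the 19. It ran from 1.17 to 1.83 in the 9 and from 0.618 to 1.55 in the 19. Most degradation genes and all sensors with a window are among the 19, so element and role cannot be told apart. These values are a description, with no test. Over all 33 genes that ratio ran from 0.618 (Ppp1r15a) to 1.83 (Hspa5) with a median of 1.25.

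The 7 genes with a seed site of the deleted microRNAs differed by -0.13 to 0.04 between the groups, and by -0.18 to 0.20 without control replicate 1. Of these, 0 passed in limma, edgeR or DESeq2, and 3 had differences above 0 (5 without control replicate 1). The Dnajc3 transcript with sites of both miR-27 and miR-23 had a difference of 0.04 (0.14 without control replicate 1), and Ern1 with 2 miR-24 sites -0.13 (-0.18).

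Other genes of the pathway were taken from 6 further lists, of 117 genes in all, of which 116 were tested. Of these, 3 rose, 5 fell and 108 did not pass in limma, which called 1.24% of all genes higher and 2.38% lower. The median difference was -0.03. Control replicate 1 was the highest library for 59 of the 116. The largest fall was that of Wfs1, which encodes wolframin, an ER membrane protein of calcium balance that limits ER stress. It measured 9426, 8639, 8335 and 8449 in the control and 4989, 5132, 5823 and 5361 in the knockout libraries, with every knockout value far below every control (-0.71, SE 0.06, adjusted p = 0.00158). The largest rise was that of Ssr2, which encodes the beta subunit of the TRAP complex to which Ssr1 belongs. It measured 2172, 1945, 2013 and 1955 in the control and 2682, 2884, 2947 and 2762 in the knockout libraries, again with no overlap (0.48, SE 0.05, adjusted p = 0.00438). Its exons share 239 bases with the pseudogene Gm10704 on the other strand, so an unstranded count could not separate them. These 2 calls held in all 8 fits that left out 1 library.

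Both lists of enzymes around the disulfide isomerases and the sugar chains held falls. Ero1lb, an oxidase that recharges the isomerases, measured 1266, 1060.1, 1126 and 1136 in the control and 743, 875, 851 and 815 in the knockout libraries (-0.48, SE 0.08, adjusted p = 0.0146). Selenom, a selenoprotein of the ER with a thioredoxin-like fold, measured 1729.7, 1845, 1807 and 1683 in the control and 1474, 1365, 1434 and 1393 in the knockout libraries (-0.32, SE 0.05, adjusted p = 0.0160). Engase, which releases sugar chains from glycoproteins in the cytosol, measured 3483, 3879.7, 4075 and 4072 in the control and 2820.1, 2671, 2931 and 3129 in the knockout libraries (-0.42, SE 0.07, adjusted p = 0.0167). In all 3 the groups did not overlap. Engase shares 431 exonic bases with Gm11748 on the other strand. All 3 calls were lost without control replicate 3, and that of Engase also without knockout replicate 1.

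Of 21 further degradation genes 1 rose and 1 fell. Erlin2, which targets calcium channels of the ER for degradation, rose from 2868 ± 183 to 3486 ± 188 (0.28, SE 0.06, adjusted p = 0.0432). Herpud2, a relative of Herpud1, fell from 2505 ± 79.7 to 2166 ± 47.1 (-0.21, SE 0.04, adjusted p = 0.0399). Among 23 genes of stress transcription and translation control, Casp12 rose from 480 ± 53.9 to 659.5 ± 51.9 (0.46, SE 0.10, adjusted p = 0.0368). It encodes a caspase that in mice sits at the ER membrane. In DESeq2 the 21 held 2 calls higher and 3 lower. The 23 held 1 higher (Casp12) and 3 lower (Wfs1, Atf6b and Mbtps2). When libraries were left out in turn, the call of Erlin2 held without control replicate 1, that of Casp12 without control replicate 2 and that of Herpud2 in none of the 8 fits.

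**Figure D5:**
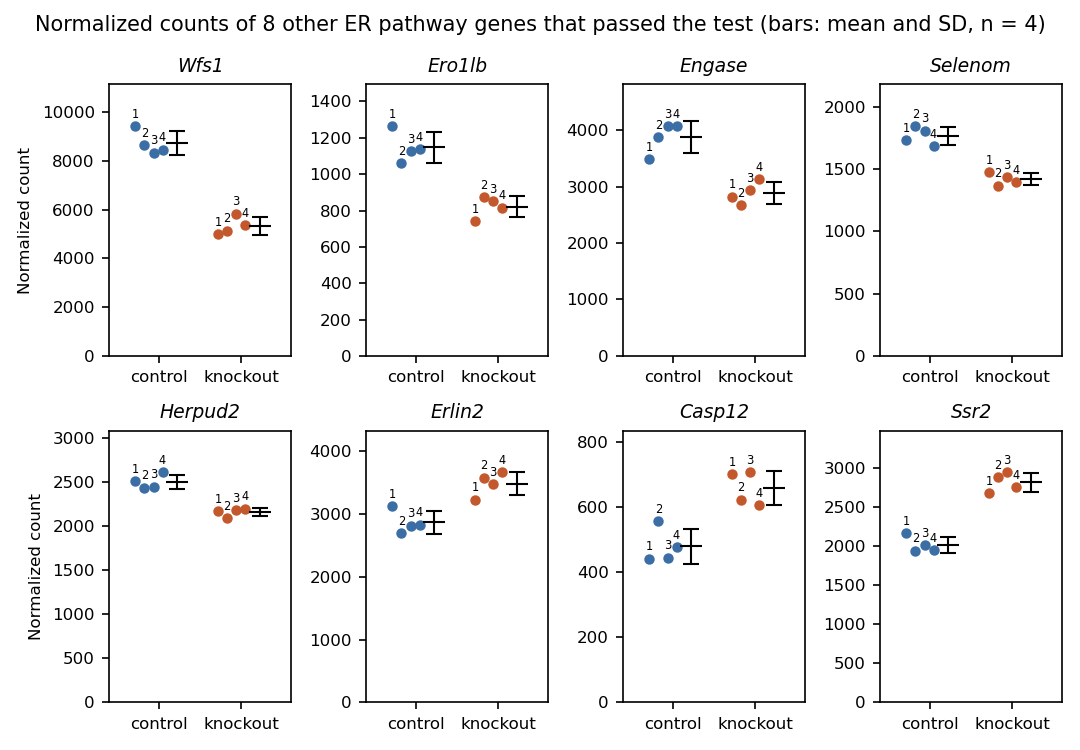
Normalized count in each library, numbered by replicate, of the 8 further pathway genes that passed the test, with mean and SD (n = 4) beside the points and axes from 0. The groups do not overlap in any of the 8; Wfs1 shows the widest gap.

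In each of the 6 lists the gene with the highest mean normalized count over the 8 libraries did not pass in limma. These were the isomerase-like Erp29 (0.05, SE 0.08), cyclophilin B gene Ppib (-0.02, SE 0.04), the glucosidase subunit Ganab (0.05, SE 0.06), the extracting ATPase Vcp (-0.03, SE 0.05), the oligosaccharyltransferase subunit Rpn2 (-0.01, SE 0.05) and the stress transcription factor Atf3 (-0.28, SE 0.10). Of these, Erp29 shares 2210 exonic bases with Naa25 and Ppib 825 with Snx22, on the other strand. Of 15 further co-chaperones 0 passed in limma or edgeR, with 3 at an unadjusted p under 0.05. Among the genes with the next smallest p, the prolyl isomerases Fkbp10 (0.34, adjusted p = 0.0893) and Fkbp11 (0.41, 0.118), the mannosidase Man1b1 (0.10, 0.219) and the signal peptidase subunit Sec11c (-0.21, 0.193) did not pass in limma. Fkbp10 passed as higher in DESeq2.

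Heat shock proteins outside the ER, most of them cytosolic and some mitochondrial, serve as a comparison. Of 14 such genes, neither limma nor edgeR called any (0) and DESeq2 called 1 as higher, with 3 at an unadjusted p under 0.05 (2 higher, 1 lower) and a median difference of 0.03. The most abundant, Hspa8, measured 76940.4, 53339.9, 50785 and 58642 in the control and 56707, 55699, 58155 and 59223 in the knockout libraries (-0.04, SE 0.13, adjusted p = 0.886), so that control replicate 1 was high in this cytosolic chaperone as well, and the difference was 0.08 without it. Hspb1 (0.51, SE 0.18) and Bag3 (-0.17, SE 0.06) had the smallest p and did not pass in limma (adjusted p = 0.153 and 0.129), while Hspb1 was the gene that DESeq2 called. Hsp90aa1 passed as higher in limma without control replicate 1 (log2 difference 0.41, SE 0.07, adjusted p = 0.0287). Control replicate 1 was the highest library for 8 of the 14. For Hspa1a, Hspa1b and Hspb1 it was instead the lowest control. It stood at 51.1%, 54.7% and 71.0% of the mean of the other controls.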

How the data were processed

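The main file is the authors' deposited table of normalized counts per gene, a signal that is never below 0, with 1 column per sample. Tools named in the submitters' processing notes are Salmon, DESeq2, cutadapt and FastQC, with build mm10, without versions or roles. Dividing each deposited column by 1 factor gave whole reads (100% of values, tolerance 0.01 reads; in control replicate 4 the step is near 1, so rounding cannot be told apart). Totals of these recovered reads were 31789395 to 46621080. Whether reads were counted by strand is not stated in the labels. A second table, also deposited, is a DESeq2 comparison. It holds, per the file headers, the average signal, the log2 fold change (control over knockout), the standard error, the test statistic (a score) and p-values. There are 15867 named genes in the main file, and 2 lines have no name.

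Groups came from the genotype label and replicate numbers from the sample title. The test was limma (3.58.1, R 4.3.3) on log2(value + 1) with a trend and no covariate, two-sided, over the 15862 genes whose mean reached 10, with p-values adjusted after Benjamini and Hochberg and called under 0.05. The pseudocount shrinks differences of low genes. Because the deposited values are normalized, edgeR (4.0.16) and DESeq2 (1.42.0) were run only as alternatives, on the recovered reads. Libraries of a group differed by more than sampling noise (lowest chi-square per gene 8.99), so all 8 were kept. The tests were tried on simulated data. Positions and untranslated regions came from GENCODE M21 on mm10, promoters and microRNAs from RefSeq on GRCm38.p6.

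The 33 genes and the other lists were chosen with earlier results of these data known, so no list was tested as a set and none is independent evidence. All 33 genes are named. From each of the other pathway and heat shock lists, the text names genes past the threshold, the most abundant gene and the 2 genes of lowest p. Fcgr1, Cd14, Mrc1, Sdc1, Tnfrsf17, Prdm1, Dpt, Atf6b, Mbtps2, Hsp90aa1, Hspa1a and Hspa1b are named outside this rule, after their values were seen. March6 was listed and has no matching symbol. Alternatives were other pseudocounts, filters, scalings, tests, sample weights, a replicate block and leaving out each library.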

Additional observations from a re-analysis of the deposited data

Results flagged for a closer look

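In 10 of the 33 genes the control group held a value far from the other 3, and it was control replicate 1 each time. The normalized counts there were 38409 for Hspa5 (others at most 22661), 31841 for Hsp90b1 (at most 21129.7), 7009 for Hyou1 (at most 4770.1), 42984 for Calr (at most 31361) and 19927 for Canx (at most 15732). They were 4885 for Dnajb11 (others at most 3973), 5151 for Dnajc3 (at most 3918), 5964 for Pdia4 (at most 4058), 11383 for Pdia6 (at most 7857) and 1959 for Derl2 (at most 1664). In each, the gap to the nearest other control passed the 95% critical value of Dixon's test for 4 samples.

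In the knockout group, Pdia6 in knockout replicate 4 (10062, others 9499 to 9533) and Os9 in knockout replicate 2 (7434, others 10292 to 10566) stood apart in the same way. Chance alone gives such a gap in about 1 in 20 groups of 4, and 12 of 66 groups showed one. The 10 genes in control replicate 1 come from 1 library and are not independent of each other. Differences of the affected genes with and without that library are given above. Differences of Os9 without knockout replicate 2 and of Pdia6 without knockout replicate 4 were -0.08 (SE 0.05, adjusted p = 0.375) and 0.19 (SE 0.15, adjusted p = 0.518) from limma, and neither passed.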

How the results depend on the processing

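Of 626 values of single genes under 19 alternatives, 585 kept their direction and their side of the threshold, 8 no longer passed, 3 newly passed and 30 changed sign. The sign changed in 12 genes, 11 of which differed by less than 0.1. Atf6 stayed lower throughout (-0.32 to -0.23) and passed in 11 of the 19. DESeq2 called 1557 genes, 2 of the 33 (Atf6 and Sel1l) and 14 of the other pathway genes, and array weights 931 genes. The authors' deposited DESeq2 comparison also held 1557 genes at adjusted p under 0.05 and the same 2 of the 33. The DESeq2 run therefore repeats that comparison and is not separate evidence. Same-numbered control and knockout libraries correlated at -0.29 to -0.04 in their deviations, and 0 of 4 controls correlated best with their own number. No pairing by number was seen, though so few libraries cannot exclude one. With the replicate block 7 genes, 0 of the 33 (Atf6 adjusted p = 0.183 in limma) and 0 of the other pathway genes passed. Leaving out 1 library gave 163 to 502 genes (380 without control replicate 1), 0 to 2 of the 33 and 2 to 6 of the other pathway genes, as the arms then have fewer samples. The median of the 33 genes ran from -0.10 to 0.05 when 1 library was left out, was 0.03 with array weights and 0.00 with equal totals.

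Scaled to equal totals, the differences turned to 0.0019 for Dnajb9, 0.036 for Edem3, 0.010 for Derl2, 0.045 for Xbp1 and 0.012 for Sec61a1. With quantile normalization they turned to 0.045 for Calr, 0.013 for Edem3, 0.033 for Xbp1 and 0.015 for Sec61a1. With array weights they turned to 0.058 for Hspa5, 0.032 for Calr, 0.055 for Dnajb9, 0.080 for Creld2, 0.00063 for Edem3 and 0.060 for Xbp1. When 1 library was left out, differences ran from -0.21 to 0.099 for Hspa5, -0.033 to 0.20 for Hsp90b1, -0.14 to 0.052 for Calr, -0.11 to 0.047 for Dnajb9, -0.0011 to 0.14 for Dnajc3 and -0.019 to 0.16 for Pdia3. They ran from -0.15 to 0.12 for Creld2, -0.085 to 0.041 for Edem3, -0.076 to 0.014 for Derl2, -0.068 to 0.092 for Xbp1 and -0.11 to 0.017 for Ssr1. The cause was not tested. At the depth of these libraries 17 to 75 counts of Derl3 carry large counting error. Differences under about 0.1 on the log2 scale lie within the spread between replicates for most of the other genes.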
